A study of Mus musculus with 33 samples.

Results

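Aminoacyl-tRNA synthetases join each amino acid to its tRNA, the step that supplies charged tRNA to the ribosome. Mammalian cells keep a cytosolic set for proteins encoded in the nucleus and a mitochondrial set for the few respiratory chain proteins encoded in mitochondrial DNA. Both sets are encoded in the nucleus, and the symbols of mitochondrial enzymes end in 2. Glycyl- and lysyl-tRNA synthetase, from Gars and Kars, are exceptions, since a single gene makes both forms. Several cytosolic synthetase genes are known targets of Atf4, the transcription factor that is translated when eIF2 alpha is phosphorylated in the integrated stress response. The heart, dense in mitochondria, depends on both sets. The transcripts of 35 synthetases, 19 cytosolic and 16 mitochondrial, were taken by symbol from the 32245 symbols of each of 3 tables, and all 35 were present and passed the filter on low values in every table.

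RNA of mouse cardiomyocytes, labelled nuclear RNA, was sequenced after removal of ribosomal RNA. Mice of the FST line were double mutant (cardiomyocyte-specific Ptpmt1 knockout and Eif2a mutant), cardiomyocyte-specific Ptpmt1 knockout, Eif2a mutant or control, with 3 libraries each. The labels write the Eif2a single as an Eif2alpha mutant. Mice of the PHT line were double knockout of Ptpmt1 and Hri (n = 2), cardiomyocyte-specific Ptpmt1 knockout (n = 3), Hri knockout (n = 2) or control (n = 2). The Hri single is labelled cardiomyocyte-specific, while in the double the term stands with Ptpmt1. Mice of the PTGC line were double knockout of Ptpmt1 and Gcn2 or control (n = 3 each), again with Ptpmt1 deleted in cardiomyocytes. Ptpmt1 is the mitochondrial phosphatase that makes phosphatidylglycerol for cardiolipin. Hri and Gcn2 are kinases that phosphorylate eIF2 alpha, Gcn2 in answer to uncharged tRNA. The promoter behind the cardiomyocyte-specific deletion, what controls carry, the age, and whether libraries of a group come from separate animals is not stated in the labels, so p-values measure the spread between libraries. The comparisons ask whether loss of Ptpmt1 alters the 2 sets of synthetase transcripts, and whether it does so when the pathway to eIF2 alpha is also mutated. The PTGC table holds no single mutant, so its double is set against control only.

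Values are normalized counts, the reads of a gene divided by a size factor. Reads in genes numbered 1887978 to 12583868 in FST, 10739569 to 19405261 in PHT and 10795644 to 19326112 in PTGC. In FST, double replicate 2 was the shallowest library and Eif2a mutant replicate 1 had the fewest genes with reads, 15157. Without both, limma called 0 members in FST doubles against controls, Eif2a mutants against controls, doubles against Eif2a mutants and the FST interaction, as with them, and counts for the 2 other FST comparisons stand beside their results. Ptpmt1 was lower in every library labelled as its knockout. It had 39.8 to 49.2 normalized counts in FST doubles and 31.3 to 40.6 in knockouts, against 156 to 175 in controls. In PHT it had 76.7 to 78.1 in doubles and 40.0 to 64.8 in knockouts, against 241 to 289 in controls, and in PTGC 66.1 to 74.5 in doubles, against 288 to 349 in controls. The kinase transcripts differed less. Eif2ak1, the gene of Hri, had 476 and 545 in PHT doubles and 416 and 389 in Hri knockouts, against 548 and 590.4 in controls and 630.3, 619 and 517 in Ptpmt1 knockouts, so that Hri knockouts lay below the other PHT libraries while doubles and Ptpmt1 knockouts overlapped. Eif2ak4, the gene of Gcn2, had 386, 352 and 313 in PTGC doubles and 432, 491 and 251 in controls, which overlapped. Which part of these genes is deleted is not stated, and a count over the whole gene does not check loss of part of it, so the Hri and Gcn2 genotypes rest on the labels. The Eif2a mutation cannot be read from counts. Cardiomyocyte markers, 9 genes, summed to 417592 or more in every library, with Ttn alone at a median of 308790 in FST. Markers of other cell types were read in every library too. Fibroblast markers summed to 8400 to 23564 and endothelial markers to 7026 to 14647. Of the lymphocyte markers, Ms4a1 was at 0 in every FST and PHT library, and the 4 genes summed to 6.59 or less. Libraries with a male pattern of sex-linked genes were 3 of 3 Ptpmt1 knockouts and 1 of 3 controls in FST, 1 of 3 Ptpmt1 knockouts and 0 of 2 controls in PHT, and 2 of 3 in both PTGC groups. All PHT doubles and Hri knockouts, 2 of 2 each, had it, so sex and those genotypes cannot be told apart against control.

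Promoter sequence was printed for the 5 synthetases that rose on loss of Ptpmt1 and hold the motif TGATGNAA, and for the mitochondrial counterparts Iars2 and Yars2. Sars and Eprs also rose and have a window, but lack the motif and were not printed. RefSeq windows on GRCm38.p6, from 250 bases before to 50 after the start the table uses, matched 26 of the 35 members, 12 cytosolic and 14 mitochondrial. In the stretches, written 5′ to 3′ on the gene's strand, capitals mark TGATGNAA, the composite site bound by C/EBP and ATF factors, searched on both strands (read as its reverse complement when it lies on the other strand). In Iars2 they mark the site of the respiratory gene factor NRF1, also searched on both strands and here on the other strand, and Yars2 holds neither. The stretches are Gars at chr6:55037941-55038020 (plus strand), Iars at chr13:49682070-49682149 (plus strand), Tars at chr15:11399639-11399718 (minus strand), Yars at chr4:129189843-129189922 (plus strand), Aars at chr8:111033717-111033861 (plus strand), Iars2 at chr1:185329382-185329461 (minus strand) and Yars2 at chr16:16302905-16302984 (plus strand).
Gars: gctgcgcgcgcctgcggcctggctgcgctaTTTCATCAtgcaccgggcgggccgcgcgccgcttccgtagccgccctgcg
Iars: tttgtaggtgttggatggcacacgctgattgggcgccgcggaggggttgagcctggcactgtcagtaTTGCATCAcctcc
Tars: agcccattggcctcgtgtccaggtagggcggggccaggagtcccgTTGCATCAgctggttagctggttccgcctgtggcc
Yars: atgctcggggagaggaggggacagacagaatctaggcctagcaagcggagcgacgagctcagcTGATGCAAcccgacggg
Aars: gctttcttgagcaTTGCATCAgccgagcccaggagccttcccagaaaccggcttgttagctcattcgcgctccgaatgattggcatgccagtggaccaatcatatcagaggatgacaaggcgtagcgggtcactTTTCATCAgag
Iars2: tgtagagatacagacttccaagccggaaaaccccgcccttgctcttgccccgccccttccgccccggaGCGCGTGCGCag
Yars2: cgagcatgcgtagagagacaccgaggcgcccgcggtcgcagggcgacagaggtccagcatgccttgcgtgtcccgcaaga

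TGATGNAA was present in 5 of the 12 cytosolic windows (Aars, which has it 2 times, Gars, Iars, Tars and Yars) and in 0 of the 14 mitochondrial ones, against 4.511% of the 27025 genes with a window. Counted from the start (its first base is 1, the base before it is -1), it began at -30 in Gars, -15 in Tars, -112 and 10 in Aars, 8 in Iars and 4 in Yars. The NRF1 site was in Farsb, Kars and Tars of the cytosolic and Iars2 and Mars2 of the mitochondrial set, against 5.188% of genes. The ETS site CCGGAAGT was in Farsa and Rars2, against 4.307%, and the cAMP response element TGACGTCA was in none of the 26, against 2.031%. The motifs searched do not overlap each other in these windows. A match describes the letters and is not evidence of binding.

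Cytosolic synthetases were the more abundant set per kb of annotated exon. This length joins all exons annotated for a gene and can exceed that of any single transcript, so levels and ranks depend on the annotation. In FST controls their median was 141 normalized counts per kb of exon (range 41.7 to 623), against 47.8 (17.9 to 119) for the mitochondrial set. Gars ranked highest of the 35 in every table, at 623 ± 72.3 per kb in FST controls (SD, n = 3), and Kars was second, at 272 ± 35.4. Both serve the 2 compartments. In FST controls Cars was the lowest cytosolic gene at 41.7 ± 5.67 per kb, and Mars2 (methionyl) was lowest of all at 17.9 ± 2.24. Exons of some members overlap those of other genes, such as Hars and Hars2 with each other (195 bases, on opposite strands) and Iars2 with Rab3gap2 (2034 bases). With no strand setting given, reads there cannot be assigned.

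Ptpmt1 knockouts of FST and PHT and Ptpmt1 Gcn2 doubles of PTGC had higher transcript levels of a subset of the cytosolic synthetases than controls, and limma called no mitochondrial synthetase. In FST Ptpmt1 knockouts against controls, 8 of 19 cytosolic members rose and 0 fell, and 0 of 16 mitochondrial members were called, where 0.324% of the 13896 genes tested were called higher and 0.18% lower (limma, adjusted p under 0.05 over all genes tested). In PHT 7 of 19 rose and 0 of 16 were called, where 0.281% of 14965 genes were called higher and 0.02% lower. In PTGC doubles against controls 8 of 19 rose and 0 of 16 were called, where 0.701% of 14128 genes were called higher and 0.0425% lower. The median log2 fold change of the cytosolic set was 0.51 in FST, 0.30 in PHT and 0.48 in PTGC. That of the mitochondrial set was -0.05, 0.02 and -0.04 in the same tables, with all genes at -0.01, 0.00 and 0.00.

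The tables share no library, and 6 genes were called in all 3: Cars, Gars, Iars, Lars, Nars and Sars. These are 6 of the 8 called in FST, 6 of the 7 in PHT and 6 of the 8 in PTGC. Aars was called in PHT and PTGC, Eprs and Tars in FST, and Yars in PTGC, which makes 10 called at least once. Synthetases fall into 2 unrelated structural classes, and both were among those called, with 4 of 9 class I and 4 of 10 class II cytosolic genes in FST and in PTGC, and 3 and 4 in PHT. Eprs, whose mitochondrial counterparts Ears2 and Pars2 fall in class I and class II, was counted as class I only. Unadjusted p under 0.05 held for 11, 10 and 12 cytosolic genes in FST, PHT and PTGC, and for 2, 0 and 1 mitochondrial genes. edgeR called 9, 7 and 8 cytosolic genes and 0 mitochondrial ones in each table. DESeq2 called 10, 7 and 9 cytosolic genes, and 1 mitochondrial gene, Lars2, in FST, where it gave an adjusted p for 4 of the 16.

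Single libraries moved these counts. In FST the 8 cytosolic calls became 4 without control replicate 1 or 2, 5 with a sex term, 4 with only the compared groups in the fit, and 9 without both libraries that stand apart. In PHT the 7 became 2 and 1 without control replicate 1 and 2, and 3 without Ptpmt1 knockout replicate 2. In PTGC the 8 became 5 without double replicate 3. No called member changed sign under any alternative run. Some marker lists moved with the groups. In FST the 5 mural markers summed to 3061 to 3660 in knockouts, against 3831 to 4301 in controls, with Rgs5 and Kcnj8 at 0 in some libraries. FST Ptpmt1 knockout replicate 3 stood apart in other lists. Its fibroblast markers summed to 18107, against 8400 to 11985 in the other FST libraries, and its erythroid (2627) and macrophage (518) sums were the highest of FST. Chi-square per degree of freedom was 20.7 and 18.5 against knockout replicates 1 and 2, and 6.47 between those. It also had the highest FST values of Cars, Sars, Lars, Nars, Iars, Gars and Aars. In PHT the 6 erythroid markers summed to 1329.5 to 5813 in knockouts and 6584 to 9174 in controls. In PHT, knockouts and controls also did not overlap for 5 mural markers (5798 to 6037 and 6328 to 6412), 5 endothelial markers (10826 to 10968 and 9833 to 10647) and 4 epicardial markers (2457 to 2704 and 2007 to 2295), or for the 4 lymphocyte markers near 0 (1.37 to 2.49 and 3.58 to 6.59). In bulk samples fewer cells of a type and less RNA per cell cannot be told apart, and the part of these lists in the synthetase values was not tested.

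**Figure D1:**
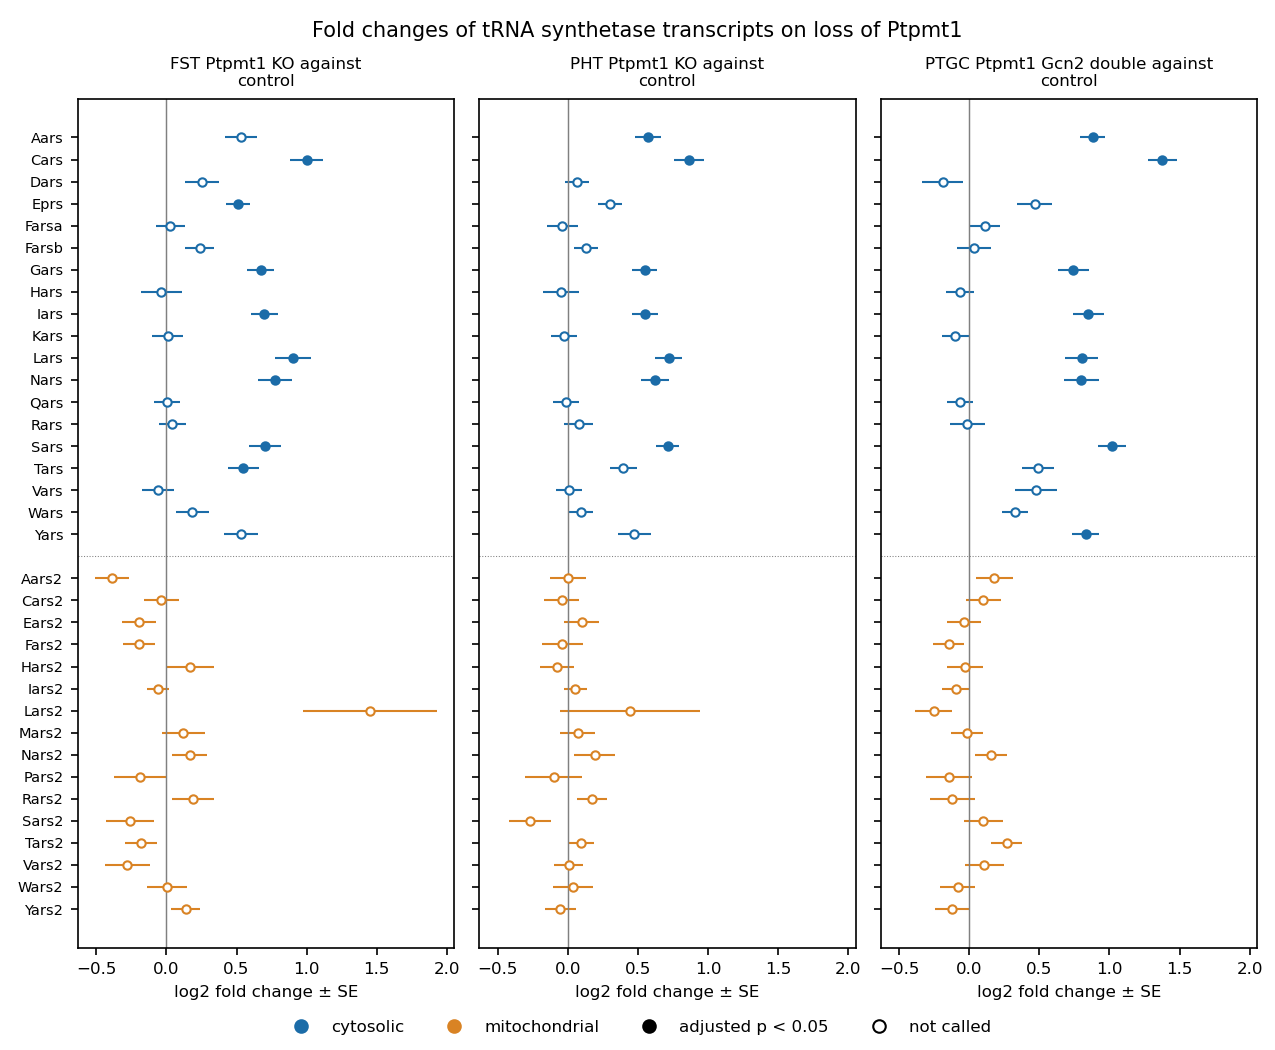
Log2 fold change ± SE of 35 synthetase transcripts in Ptpmt1 knockouts or Ptpmt1 Gcn2 doubles against controls of the same table, with cytosolic genes (blue) above mitochondrial genes (orange). Filled points are genes with an adjusted p under 0.05, and all of them are cytosolic.

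Cars, cysteinyl-tRNA synthetase (chromosome 7, 143557230 to 143600090 in GRCm38), showed the highest fold change of the called genes in every table. In FST, Cars had 512, 540.0 and 593 normalized counts in the Ptpmt1 knockouts, against 246, 261 and 317 in the controls. In PHT, Cars had 720.0, 852 and 889 in the Ptpmt1 knockouts and 467 and 431 in the controls. In PTGC, Cars had 1038, 913 and 1062 in the Ptpmt1 Gcn2 doubles and 388, 390.0 and 378 in the controls. All Ptpmt1 knockouts and PTGC doubles lay above all controls of their table for Cars. Cars had 327, 301 and 282 in FST doubles, 275, 287 and 317 in Eif2a mutants, 362 and 391 in PHT doubles and 369 and 355 in Hri knockouts. Cars rose by a log2 fold change of 1.0 ± 0.12 (limma adjusted p = 0.000700) in FST, 0.86 ± 0.11 (limma adjusted p = 0.00112) in PHT and 1.38 ± 0.10 (limma adjusted p = 1.53e-05) in PTGC. Cars lost its PHT call without control replicate 2 (0.0545), adjusted p in parentheses.

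Cars2 charges mitochondrial tRNA with cysteine. In FST, Cars2 had 174, 169 and 189 in the Ptpmt1 knockouts, against 178, 175 and 193 in the controls. In PHT, Cars2 had 294, 339 and 320.1 in the Ptpmt1 knockouts and 344 and 311 in the controls. In PTGC, Cars2 had 273, 268 and 299 in the Ptpmt1 Gcn2 doubles and 280.0, 276 and 229.6 in the controls. These groups of Cars2 overlapped in all 3 tables. Cars2 had 179, 168 and 200.2 in FST doubles, 248.7, 209 and 244 in Eif2a mutants, 256 and 271 in PHT doubles and 328 and 282 in Hri knockouts. Cars2 was not called, at -0.04 ± 0.12 (adjusted p = 0.948) in FST, -0.04 ± 0.12 (adjusted p = 0.999) in PHT and 0.10 ± 0.13 (adjusted p = 0.744) in PTGC.

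Sars, seryl-tRNA synthetase (chromosome 3, 108424865 to 108445209), also serves the tRNA on which selenocysteine is made. In FST, Sars had 1003, 1049 and 1395 normalized counts in the Ptpmt1 knockouts, against 628, 703 and 767 in the controls. In PHT, Sars had 1703, 1717 and 1865 in the Ptpmt1 knockouts and 1020.2 and 1128 in the controls. In PTGC, Sars had 2339, 2067 and 2388 in the Ptpmt1 Gcn2 doubles and 1060.4, 1112 and 1175 in the controls. No control reached a Ptpmt1 knockout or PTGC double of its table for Sars. Sars had 774, 742 and 761 in FST doubles, 693, 779.6 and 698 in Eif2a mutants, 1016 and 1085 in PHT doubles and 1055 and 1039 in Hri knockouts. Sars rose by a log2 fold change of 0.70 ± 0.12 (limma adjusted p = 0.0104) in FST, 0.71 ± 0.08 (limma adjusted p = 0.000488) in PHT and 1.02 ± 0.10 (limma adjusted p = 0.000143) in PTGC. Sars lost its FST call with the 2 compared groups alone in the fit (0.112), without control replicate 1 (0.0683) and without control replicate 2 (0.0564), adjusted p in parentheses.

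Sars2 is the mitochondrial seryl enzyme. In FST, Sars2 had 119, 144 and 125 in the Ptpmt1 knockouts, against 135, 161 and 169 in the controls. In PHT, Sars2 had 247, 217 and 221 in the Ptpmt1 knockouts and 281 and 269.6 in the controls. In PTGC, Sars2 had 206, 211 and 228 in the Ptpmt1 Gcn2 doubles and 211, 225 and 171 in the controls. For Sars2, knockouts or PTGC doubles lay below the controls in PHT and overlapped with the controls in FST and PTGC. Sars2 had 131, 186 and 146 in FST doubles, 179, 142 and 126 in Eif2a mutants, 216 and 308 in PHT doubles and 247 and 223 in Hri knockouts. Sars2 was not called, at -0.26 ± 0.17 (adjusted p = 0.557) in FST, -0.27 ± 0.15 (adjusted p = 0.999) in PHT and 0.10 ± 0.14 (adjusted p = 0.772) in PTGC.

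Lars, leucyl-tRNA synthetase (chromosome 18, 42202298 to 42262194), is also known as a leucine sensor upstream of mTORC1, and its partner Lars2 is described with the mitochondrial set. In FST, Lars had 1359.5, 1488 and 1903 normalized counts in the Ptpmt1 knockouts, against 739.7, 848 and 940.3 in the controls. In PHT, Lars had 1852, 2082 and 1888 in the Ptpmt1 knockouts and 1166 and 1189 in the controls. In PTGC, Lars had 2684, 2401 and 2557 in the Ptpmt1 Gcn2 doubles and 1299, 1392 and 1722 in the controls. All Ptpmt1 knockouts and PTGC doubles lay above all controls of their table for Lars. Lars had 826, 924 and 792 in FST doubles, 1016, 784 and 829 in Eif2a mutants, 1134 and 1415 in PHT doubles and 1228 and 1373 in Hri knockouts. Lars rose by a log2 fold change of 0.90 ± 0.13 (limma adjusted p = 0.00429) in FST, 0.72 ± 0.10 (limma adjusted p = 0.00229) in PHT and 0.80 ± 0.12 (limma adjusted p = 0.00437) in PTGC. Lars lost its PHT call without control replicate 1 (0.0719) and without control replicate 2 (0.0637), adjusted p in parentheses. Lars lost its PTGC call without double replicate 3 (0.0588), adjusted p in parentheses.

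Nars charges asparagine (chromosome 18, 64499647 to 64516652). In FST, Nars had 1430.3, 1539 and 1859 normalized counts in the Ptpmt1 knockouts, against 866, 889 and 1056 in the controls. In PHT, Nars had 1884, 2104 and 2126 in the Ptpmt1 knockouts and 1319.7 and 1329.9 in the controls. In PTGC, Nars had 2999, 2526 and 3026 in the Ptpmt1 Gcn2 doubles and 1476, 1500.3 and 1967 in the controls. These groups of Nars did not overlap in any of the 3 tables, with controls the lower. Nars had 923, 1096 and 871 in FST doubles, 1166, 971 and 936 in Eif2a mutants, 1220.2 and 1554 in PHT doubles and 1282 and 1384 in Hri knockouts. Nars rose by a log2 fold change of 0.78 ± 0.12 (limma adjusted p = 0.00728) in FST, 0.62 ± 0.10 (limma adjusted p = 0.00907) in PHT and 0.80 ± 0.13 (limma adjusted p = 0.00930) in PTGC. Nars lost its FST call with a sex term (0.0694), without control replicate 1 (0.0560) and without control replicate 2 (0.0564), adjusted p in parentheses. Nars lost its PHT call without Ptpmt1 knockout replicate 2 (0.0757), without control replicate 1 (0.176) and without control replicate 2 (0.181), adjusted p in parentheses. Nars lost its PTGC call without control replicate 1 (0.0881), without double replicate 1 (0.0631) and without double replicate 3 (0.116), adjusted p in parentheses.

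Nars2 is its mitochondrial counterpart. In FST, Nars2 had 183, 194 and 160.3 in the Ptpmt1 knockouts, against 172, 150.4 and 156 in the controls. In PHT, Nars2 had 287, 323 and 277 in the Ptpmt1 knockouts and 268 and 248 in the controls. In PTGC, Nars2 had 261, 274 and 264 in the Ptpmt1 Gcn2 doubles and 246, 235 and 235 in the controls. For Nars2, knockouts or PTGC doubles lay above the controls in PHT and PTGC and overlapped with the controls in FST. Nars2 had 165, 155 and 167 in FST doubles, 166, 153 and 163 in Eif2a mutants, 222 and 243 in PHT doubles and 259.7 and 192 in Hri knockouts. Nars2 was not called, at 0.17 ± 0.13 (adjusted p = 0.622) in FST, 0.19 ± 0.15 (adjusted p = 0.999) in PHT and 0.16 ± 0.11 (adjusted p = 0.556) in PTGC.

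Iars charges isoleucine (chromosome 13, 49682100 to 49734267), and its promoter holds the composite site just after the start. In FST, Iars had 1903, 1959 and 2227 normalized counts in the Ptpmt1 knockouts, against 1162, 1182 and 1415 in the controls. In PHT, Iars had 2444, 2982 and 2912 in the Ptpmt1 knockouts and 1893 and 1889 in the controls. In PTGC, Iars had 3967, 3384 and 3783 in the Ptpmt1 Gcn2 doubles and 1825, 2048 and 2322 in the controls. All Ptpmt1 knockouts and PTGC doubles lay above all controls of their table for Iars. Iars had 1341, 1330.3 and 1316 in FST doubles, 1470.3, 1347 and 1223 in Eif2a mutants, 1747 and 1944 in PHT doubles and 1680.3 and 1887 in Hri knockouts. Iars rose by a log2 fold change of 0.70 ± 0.10 (limma adjusted p = 0.00308) in FST, 0.55 ± 0.10 (limma adjusted p = 0.0182) in PHT and 0.85 ± 0.11 (limma adjusted p = 0.00215) in PTGC. Iars lost its PHT call without Ptpmt1 knockout replicate 2 (0.138), without Ptpmt1 knockout replicate 3 (0.0704), without control replicate 1 (0.252) and without control replicate 2 (0.284), adjusted p in parentheses.

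Iars2 was the most abundant mitochondrial member per kb in FST controls, and its promoter stretch holds the NRF1 site. In FST, Iars2 had 989.6, 984 and 1071 in the Ptpmt1 knockouts, against 1047, 1068 and 1063 in the controls. In PHT, Iars2 had 1482, 1542 and 1566 in the Ptpmt1 knockouts and 1398 and 1555 in the controls. In PTGC, Iars2 had 1807, 1689.8 and 1691 in the Ptpmt1 Gcn2 doubles and 1713, 1801 and 2043 in the controls. These groups of Iars2 overlapped in all 3 tables. Iars2 had 998, 955 and 1091 in FST doubles, 1036, 1023 and 961 in Eif2a mutants, 1370.5 and 1448 in PHT doubles and 1601 and 1699 in Hri knockouts. Iars2 was not called, at -0.06 ± 0.08 (adjusted p = 0.806) in FST, 0.05 ± 0.08 (adjusted p = 0.999) in PHT and -0.10 ± 0.10 (adjusted p = 0.675) in PTGC.

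Gars (chromosome 6, 55038007 to 55079500) makes glycyl-tRNA synthetase for both compartments, so it has no mitochondrial partner gene. In FST, Gars had 2899, 2999.6 and 3366 normalized counts in the Ptpmt1 knockouts, against 1850.4, 1779.5 and 2200.4 in the controls. In PHT, Gars had 3515, 3951 and 3988 in the Ptpmt1 knockouts and 2496 and 2719 in the controls. In PTGC, Gars had 5721, 5061 and 5837 in the Ptpmt1 Gcn2 doubles and 3108, 3060.1 and 3792 in the controls. No control reached a Ptpmt1 knockout or PTGC double of its table for Gars. Gars had 1993, 2139 and 1913 in FST doubles, 2240.4, 2054 and 1855 in Eif2a mutants, 2544 and 2901 in PHT doubles and 2473 and 2711 in Hri knockouts. Gars rose by a log2 fold change of 0.67 ± 0.10 (limma adjusted p = 0.00429) in FST, 0.55 ± 0.09 (limma adjusted p = 0.00907) in PHT and 0.74 ± 0.11 (limma adjusted p = 0.00561) in PTGC. Gars lost its FST call with the 2 compared groups alone in the fit (0.0519), adjusted p in parentheses. Gars lost its PHT call without Ptpmt1 knockout replicate 2 (0.0800), without control replicate 1 (0.257) and without control replicate 2 (0.0704), adjusted p in parentheses. Gars lost its PTGC call without control replicate 1 (0.0565) and without double replicate 3 (0.0792), adjusted p in parentheses.

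Aars charges alanine (chromosome 8, 111033144 to 111057664), and 14.3% of its exonic length overlaps Exosc6 on the same strand. In FST, Aars had 1371, 1532 and 1786 normalized counts in the Ptpmt1 knockouts, against 974, 991 and 1287 in the controls. In PHT, Aars had 2118, 2396 and 2627 in the Ptpmt1 knockouts and 1637 and 1555 in the controls. In PTGC, Aars had 3129, 2897 and 3097 in the Ptpmt1 Gcn2 doubles and 1578, 1744 and 1639 in the controls. No control reached a Ptpmt1 knockout or PTGC double of its table for Aars. Aars had 1049.8, 906 and 994 in FST doubles, 1049, 1025 and 1023 in Eif2a mutants, 1468 and 1608 in PHT doubles and 1535 and 1535 in Hri knockouts. Aars rose by a log2 fold change of 0.57 ± 0.09 (limma adjusted p = 0.00907) in PHT and 0.88 ± 0.09 (limma adjusted p = 0.000276) in PTGC. It was not called in FST (0.53 ± 0.11, adjusted p = 0.0533). Aars lost its PHT call without Ptpmt1 knockout replicate 2 (0.0641), without control replicate 1 (0.103) and without control replicate 2 (0.246), adjusted p in parentheses. Aars was called in FST with DESeq2 (0.00175), with edgeR (0.0443), with the filter at 50 (0.0448), with a pseudocount of 5 (0.0452), without Ptpmt1 knockout replicate 1 (0.0471), without Ptpmt1 knockout replicate 3 (0.0361) and without control replicate 3 (0.0101), adjusted p in parentheses.

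Aars2 is the mitochondrial alanyl enzyme, known in humans for mutations that cause infantile cardiomyopathy. In FST, Aars2 had 166, 185 and 192 in the Ptpmt1 knockouts, against 256, 215 and 242 in the controls. In PHT, Aars2 had 397, 366 and 447 in the Ptpmt1 knockouts and 436 and 371 in the controls. In PTGC, Aars2 had 323, 350.2 and 369.5 in the Ptpmt1 Gcn2 doubles and 307, 352 and 266 in the controls. For Aars2, knockouts or PTGC doubles lay below the controls in FST and overlapped with the controls in PHT and PTGC. Aars2 had 234, 221 and 192 in FST doubles, 214, 222 and 226 in Eif2a mutants, 363 and 337 in PHT doubles and 411 and 344 in Hri knockouts. Aars2 was not called, at -0.39 ± 0.12 (adjusted p = 0.183) in FST, 0.00 ± 0.13 (adjusted p = 0.9995) in PHT and 0.18 ± 0.13 (adjusted p = 0.558) in PTGC.

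**Figure D2:**
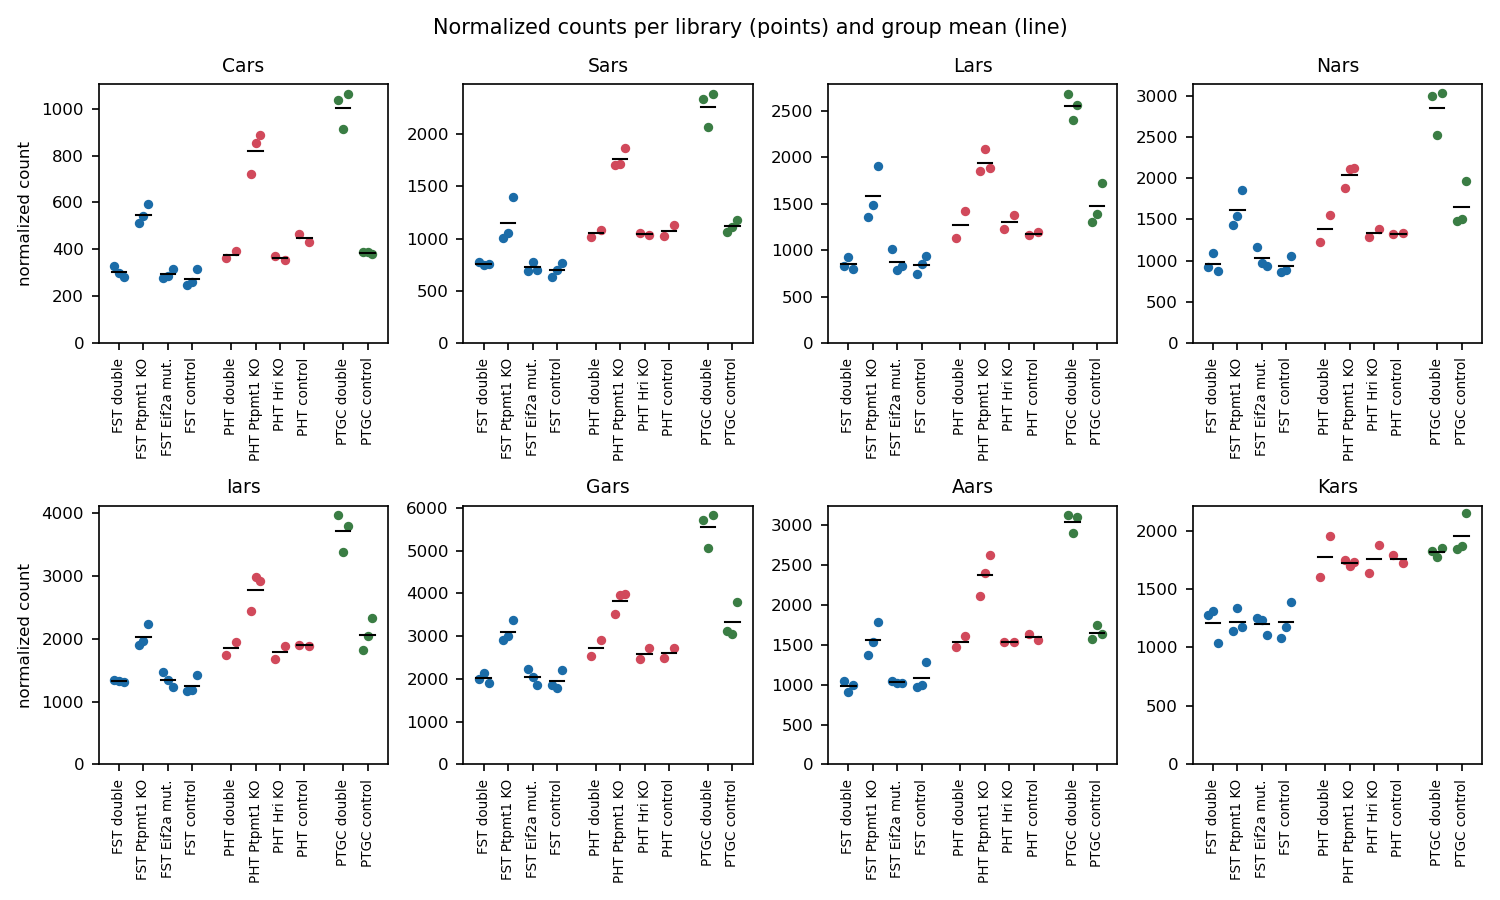
Normalized counts of 8 cytosolic synthetases in each library (points) with the group mean (line), by table (FST blue, PHT red, PTGC green) and genotype. In the first 7 genes the Ptpmt1 knockouts and the PTGC doubles stand above their controls, while Kars lies level, and the FST and PHT doubles lie near their controls.

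Yars charges tyrosine (chromosome 4, 129189760 to 129219607). In FST, Yars had 705, 746 and 815 normalized counts in the Ptpmt1 knockouts, against 476, 499.5 and 592 in the controls. In PHT, Yars had 937, 1103 and 1236 in the Ptpmt1 knockouts and 842 and 724 in the controls. In PTGC, Yars had 1359, 1309 and 1385 in the Ptpmt1 Gcn2 doubles and 690.3, 815 and 778 in the controls. No control reached a Ptpmt1 knockout or PTGC double of its table for Yars. Yars had 501, 641 and 445 in FST doubles, 515, 516 and 504 in Eif2a mutants, 745 and 855 in PHT doubles and 727 and 821 in Hri knockouts. Yars rose by a log2 fold change of 0.83 ± 0.10 (limma adjusted p = 0.00108) in PTGC. It was not called in FST (0.53 ± 0.12, adjusted p = 0.0761) and PHT (0.47 ± 0.12, adjusted p = 0.219). Yars was called in FST with DESeq2 (0.00208), without Ptpmt1 knockout replicate 3 (0.0473) and without both FST libraries that stand apart (0.0320), adjusted p in parentheses.

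Yars2 is the mitochondrial tyrosyl enzyme. In FST, Yars2 had 218, 222 and 204 in the Ptpmt1 knockouts, against 197, 199 and 189.7 in the controls. In PHT, Yars2 had 306, 328 and 338 in the Ptpmt1 knockouts and 328 and 345 in the controls. In PTGC, Yars2 had 343, 335 and 331 in the Ptpmt1 Gcn2 doubles and 387, 318 and 402 in the controls. For Yars2, knockouts or PTGC doubles lay above the controls in FST and overlapped with the controls in PHT and PTGC. Yars2 had 213, 229.8 and 217 in FST doubles, 214, 213 and 218 in Eif2a mutants, 273 and 300.0 in PHT doubles and 355 and 340.3 in Hri knockouts. Yars2 was not called, at 0.14 ± 0.10 (adjusted p = 0.624) in FST, -0.05 ± 0.11 (adjusted p = 0.999) in PHT and -0.13 ± 0.12 (adjusted p = 0.652) in PTGC.

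Tars charges threonine (chromosome 15, 11382301 to 11399665), and its promoter holds the composite site upstream of the start. In FST, Tars had 809.8, 1029.9 and 898 normalized counts in the Ptpmt1 knockouts, against 559, 608 and 704 in the controls. In PHT, Tars had 1079, 1286 and 1194 in the Ptpmt1 knockouts and 890.2 and 911 in the controls. In PTGC, Tars had 1554, 1364 and 1488 in the Ptpmt1 Gcn2 doubles and 989.8, 950.3 and 1211 in the controls. These groups of Tars did not overlap in any of the 3 tables, with controls the lower. Tars had 602, 742 and 677 in FST doubles, 662, 606 and 641 in Eif2a mutants, 777 and 795 in PHT doubles and 756 and 887 in Hri knockouts. Tars rose by a log2 fold change of 0.55 ± 0.11 (limma adjusted p = 0.0462) in FST. It was not called in PHT (0.39 ± 0.10, adjusted p = 0.200) and PTGC (0.49 ± 0.11, adjusted p = 0.112). Tars lost its FST call with no filter on low values (0.0601), with the 2 compared groups alone in the fit (0.177), with a sex term (0.347), without Ptpmt1 knockout replicate 2 (0.219), without control replicate 1 (0.191) and without control replicate 2 (0.158), adjusted p in parentheses. Tars was called in PTGC with DESeq2 (0.0170) and without control replicate 3 (0.00331), adjusted p in parentheses.

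Tars2 is its mitochondrial counterpart. In FST, Tars2 had 331, 329 and 366 in the Ptpmt1 knockouts, against 366, 339 and 469 in the controls. In PHT, Tars2 had 581, 599 and 637 in the Ptpmt1 knockouts and 561 and 574 in the controls. In PTGC, Tars2 had 621, 605 and 657 in the Ptpmt1 Gcn2 doubles and 577, 525 and 468 in the controls. For Tars2, knockouts or PTGC doubles lay above the controls in PHT and PTGC and overlapped with the controls in FST. Tars2 had 411, 389 and 417 in FST doubles, 443, 392 and 422 in Eif2a mutants, 512 and 535 in PHT doubles and 569 and 554 in Hri knockouts. Tars2 was not called, at -0.18 ± 0.12 (adjusted p = 0.532) in FST, 0.09 ± 0.09 (adjusted p = 0.999) in PHT and 0.27 ± 0.11 (adjusted p = 0.408) in PTGC.

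Eprs (chromosome 1, 185363044 to 185428360) encodes a fused enzyme that charges glutamate and proline. In FST, Eprs had 3501, 3645 and 3664 normalized counts in the Ptpmt1 knockouts, against 2333, 2385 and 2916 in the controls. In PHT, Eprs had 3813, 4321 and 4338 in the Ptpmt1 knockouts and 3403 and 3346 in the controls. In PTGC, Eprs had 6380.1, 5407 and 5974 in the Ptpmt1 Gcn2 doubles and 3823, 3923 and 5222 in the controls. These groups of Eprs did not overlap in any of the 3 tables, with controls the lower. Eprs had 2595, 2599 and 2625 in FST doubles, 2692, 2452 and 2421 in Eif2a mutants, 3434 and 3916 in PHT doubles and 3150.2 and 3325 in Hri knockouts. Eprs rose by a log2 fold change of 0.51 ± 0.09 (limma adjusted p = 0.0124) in FST. It was not called in PHT (0.30 ± 0.09, adjusted p = 0.419) and PTGC (0.47 ± 0.13, adjusted p = 0.212). Eprs lost its FST call with the 2 compared groups alone in the fit (0.135), with a sex term (0.0636), without Ptpmt1 knockout replicate 2 (0.0503), without control replicate 1 (0.0786) and without control replicate 2 (0.0894), adjusted p in parentheses. Eprs was called in PTGC without control replicate 3 (0.00348), adjusted p in parentheses.

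Ears2 and Pars2, 2 separate mitochondrial genes, are its counterparts. In FST, Ears2 had 228, 230.2 and 277 in the Ptpmt1 knockouts, against 281, 289 and 269.8 in the controls. In PHT, Ears2 had 415, 393 and 463 in the Ptpmt1 knockouts and 452 and 345 in the controls. In PTGC, Ears2 had 392, 349 and 467 in the Ptpmt1 Gcn2 doubles and 409, 414 and 410.1 in the controls. These groups of Ears2 overlapped in all 3 tables. Ears2 had 212, 225 and 242 in FST doubles, 248.7, 209 and 251 in Eif2a mutants, 383 and 396 in PHT doubles and 429.9 and 441 in Hri knockouts. Ears2 was not called, at -0.20 ± 0.12 (adjusted p = 0.506) in FST, 0.10 ± 0.12 (adjusted p = 0.999) in PHT and -0.04 ± 0.12 (adjusted p = 0.905) in PTGC. In FST, Pars2 had 74.8, 70.1 and 83.3 in the Ptpmt1 knockouts, against 79.8, 89.8 and 90.4 in the controls. In PHT, Pars2 had 116, 126 and 137 in the Ptpmt1 knockouts and 146 and 125 in the controls. In PTGC, Pars2 had 118, 124 and 124 in the Ptpmt1 Gcn2 doubles and 127, 166 and 115 in the controls. These groups of Pars2 overlapped in all 3 tables. Pars2 had 80.9, 79.6 and 70.3 in FST doubles, 73.6, 100.2 and 68.2 in Eif2a mutants, 116 and 129.5 in PHT doubles and 88.2 and 137 in Hri knockouts. Pars2 was not called, at -0.19 ± 0.18 (adjusted p = 0.733) in FST, -0.10 ± 0.20 (adjusted p = 0.999) in PHT and -0.14 ± 0.16 (adjusted p = 0.709) in PTGC.

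The other 9 cytosolic members were called in none of the 3 comparisons. They are Dars (aspartate), Farsa and Farsb (the subunits of the phenylalanine enzyme), Hars (histidine), Kars (lysine), Qars (glutamine), Rars (arginine), Vars (valine) and Wars (tryptophan). Their log2 fold changes ran between -0.06 and 0.25 in FST, -0.05 and 0.13 in PHT and -0.19 and 0.48 in PTGC. In FST, Kars had 1143, 1337 and 1174 normalized counts in the Ptpmt1 knockouts, against 1082, 1171 and 1389.5 in the controls. In PHT, Kars had 1745, 1693 and 1729 in the Ptpmt1 knockouts and 1793 and 1722 in the controls. In PTGC, Kars had 1826, 1771 and 1852 in the Ptpmt1 Gcn2 doubles and 1841, 1867 and 2154 in the controls. These groups of Kars overlapped in all 3 tables. Kars had 1281, 1313 and 1039.8 in FST doubles, 1249.6, 1235 and 1110.1 in Eif2a mutants, 1603 and 1949 in PHT doubles and 1635 and 1874 in Hri knockouts. The 95% interval of the Kars log2 fold change was -0.23 to 0.24 in FST, -0.23 to 0.17 in PHT and -0.31 to 0.11 in PTGC. For Qars, the log2 fold change was 0.00 ± 0.09, -0.01 ± 0.09 and -0.07 ± 0.09 in these tables, and for Rars it was 0.04 ± 0.10, 0.08 ± 0.10 and -0.01 ± 0.13. In PTGC, Vars (0.48 ± 0.15, adjusted p = 0.292) and Wars (0.32 ± 0.09, adjusted p = 0.247) had the highest values of the 9, and for both genes doubles and controls did not overlap. Vars was called in PTGC without control replicate 2 (0.0342), adjusted p in parentheses. Dars was called in FST without Ptpmt1 knockout replicate 3 (0.0348), adjusted p in parentheses.

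Among mitochondrial members Lars2, the leucyl enzyme (chromosome 9, 123366927 to 123462666), varied most between libraries of a group. In FST, Lars2 had 2756, 1704 and 398 normalized counts in the Ptpmt1 knockouts, against 553, 407 and 405 in the controls. In PHT, Lars2 had 2317, 2947 and 4069 in the Ptpmt1 knockouts and 5598 and 886 in the controls. In PTGC, Lars2 had 572, 652 and 692 in the Ptpmt1 Gcn2 doubles and 833, 634 and 832 in the controls. In FST 2 of the 3 knockouts were high and the third lay below every control, in PHT the highest and the lowest of these 5 libraries were both controls, and in PTGC the groups overlapped. Lars2 was at 1.45 ± 0.48, adjusted p = 0.203 in FST, 0.44 ± 0.50, adjusted p = 0.999 in PHT and -0.26 ± 0.13, adjusted p = 0.459 in PTGC, and was not called. Lars2 was called in FST with DESeq2 (0.0405) and without Ptpmt1 knockout replicate 3 (0.000547), adjusted p in parentheses. Lars2 was called in PHT without control replicate 1 (0.0491), adjusted p in parentheses. Lars2 had 279, 623 and 308 in FST doubles, 445, 444 and 407 in Eif2a mutants, 2086 and 1381 in PHT doubles and 2601 and 4353 in Hri knockouts. AY036118, a chromosome 17 transcript known to match ribosomal RNA precursor sequence and chosen after its values were seen, had 50.9, 51.2 and 0 in the FST knockouts, and 0, 0 and 0 in the doubles, 0, 0 and 0 in the Eif2a mutants and 0.823, 0 and 0.735 in the controls, so that it was high in the same 2 libraries. In PHT it had 3.74, 2.05 and 21 in knockouts and 4.71 and 1.19 in controls, which overlapped. Its neighbour Gm42418 had 75075, 72477 and 61438 in the FST knockouts and 60944, 68779 and 79743 in the FST controls, which overlapped. Gm26917, also adjacent, had 184347, 213371 and 260703 in the FST knockouts and 255320.0, 284562 and 366257 in the FST controls. Gm26917 was below every FST control in the 2 FST libraries where Lars2 was high. In PHT it went the other way. Control replicate 1, with the highest Lars2 of PHT (5598), also had the highest Gm26917 (689717) and Gm42418 (201290) of PHT. The part of such reads in the Lars2 values was not tested.

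**Figure D3:**
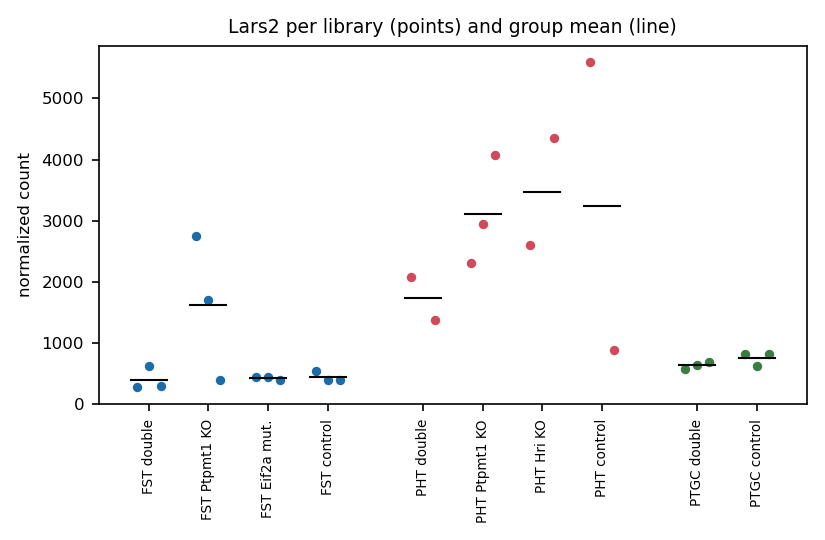
Normalized counts of Lars2, mitochondrial leucyl-tRNA synthetase, in each library (points) with the group mean (line), by table and genotype. Knockout values in FST run between 398 and 2756, and the PHT controls lie at 886 and 5598.

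The remaining mitochondrial members are Fars2 (phenylalanine), Hars2 (histidine), Mars2 (methionine), Rars2 (arginine), Vars2 (valine) and Wars2 (tryptophan), and none was called. In FST their log2 fold changes were -0.20 for Fars2, 0.17 for Hars2, 0.12 for Mars2, 0.19 for Rars2, -0.28 for Vars2 and 0.00 for Wars2. In PHT they were -0.04 for Fars2, -0.08 for Hars2, 0.07 for Mars2, 0.17 for Rars2, 0.01 for Vars2 and 0.03 for Wars2. In PTGC they were -0.15 for Fars2, -0.03 for Hars2, -0.02 for Mars2, -0.12 for Rars2, 0.11 for Vars2 and -0.08 for Wars2. Of the 16 mitochondrial members, 7 were above 0 in FST, 10 in PHT and 6 in PTGC, against 17, 15 and 14 of the 19 cytosolic ones. Groups did not overlap, with knockouts or doubles higher, for 10, 13 and 12 cytosolic members in FST, PHT and PTGC, where 9.61%, 12% and 8.98% of all genes tested did so. For mitochondrial members the numbers were 2, 3 and 2, and 2, 1 and 1 lay lower without overlap, where 9.48%, 11.6% and 9.05% of all genes did.

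With the Eif2a mutation added, a subset of the cytosolic synthetases was lower than with loss of Ptpmt1 alone. In FST doubles against Ptpmt1 knockouts 8 of 19 cytosolic members fell and 0 rose, where 0.432% of all genes tested were called lower and 0.446% higher. Of the mitochondrial members 0 of 16 were called by limma (1, Lars2, at an unadjusted p under 0.05), while edgeR and DESeq2 both called Lars2 lower. Cars had 327, 301 and 282 normalized counts in FST doubles, against 512, 540.0 and 593 in FST Ptpmt1 knockouts. Lars had 826, 924 and 792 normalized counts in FST doubles, against 1359.5, 1488 and 1903 in FST Ptpmt1 knockouts. Nars had 923, 1096 and 871 normalized counts in FST doubles, against 1430.3, 1539 and 1859 in FST Ptpmt1 knockouts. All doubles lay below all knockouts for these 3 genes. The log2 fold changes were -0.89 ± 0.13 for Lars (adjusted p = 0.00532), -0.85 ± 0.12 for Cars (0.00362), -0.74 ± 0.12 for Nars (0.00887) and -0.66 ± 0.11 for Aars (0.0114). The other 4 that fell were Gars (-0.61 ± 0.10, adjusted p = 0.00887), Iars (-0.61 ± 0.10, adjusted p = 0.00871), Sars (-0.58 ± 0.12, adjusted p = 0.0260) and Eprs (-0.47 ± 0.09, adjusted p = 0.0182). Kars was at -0.01 ± 0.11. The cytosolic median was -0.44, the mitochondrial 0.03 and that of all genes -0.01 (log2 fold change).

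The number of cytosolic calls in this comparison was 3 without double replicate 3, and 6 without both libraries that stand apart. Lars, Cars and Iars kept their calls under every alternative run. The others lost theirs under at least 1, with the highest adjusted p 0.0645 for Nars (without double replicate 3), 0.0695 for Aars (without double replicate 2), 0.0586 for Gars (without double replicate 3), 0.102 for Sars (without double replicate 2) and 0.0743 for Eprs (without double replicate 1). edgeR called 9 cytosolic members and DESeq2 10. Yars and Tars were not called with all libraries by limma, at -0.53 ± 0.12, adjusted p = 0.0604 and -0.44 ± 0.11, adjusted p = 0.0799. Yars was called in this comparison with DESeq2 (0.00274), with edgeR (0.0414), without both FST libraries that stand apart (0.0183) and without double replicate 2 (0.0218), adjusted p in parentheses. Tars was called in this comparison with DESeq2 (0.0183), adjusted p in parentheses. Lars2 was called in this comparison with DESeq2 (0.0333), with edgeR (0.0413) and without Ptpmt1 knockout replicate 3 (0.000546), adjusted p in parentheses. Doubles lay below knockouts without overlap for 10 of 19 cytosolic members, and above them for 0, where 8.87% of all genes tested lay lower and 8.95% higher without overlap. The numbers for mitochondrial members were 0 lower and 1 higher, Tars2. The 5 mural markers, which differed between FST knockouts and controls, summed to 4103 to 4202 in doubles and 3061 to 3660 in knockouts, and their part was not tested. The comparison shares its knockouts with that of knockouts against controls.

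In mice labelled as lacking Hri as well, a subset of the cytosolic synthetases was lower than in Ptpmt1 knockouts. In PHT doubles against Ptpmt1 knockouts 8 of 19 cytosolic members fell and 0 rose, where 0.267% of genes were called lower and 0.0601% higher, and 0 of 16 mitochondrial members were called (4 at an unadjusted p under 0.05, 0 called by edgeR or DESeq2). Cars had 362 and 391 normalized counts in PHT doubles, against 720.0, 852 and 889 in PHT Ptpmt1 knockouts. Sars had 1016 and 1085 normalized counts in PHT doubles, against 1703, 1717 and 1865 in PHT Ptpmt1 knockouts. Aars had 1468 and 1608 normalized counts in PHT doubles, against 2118, 2396 and 2627 in PHT Ptpmt1 knockouts. Doubles lay below knockouts without overlap for each. Cars fell, with a log2 fold change of -1.12 ± 0.11 (adjusted p = 6.60e-05), Sars of -0.74 ± 0.08 (0.000248) and Aars of -0.63 ± 0.09 (0.00449). The others were Lars (-0.61 ± 0.10, adjusted p = 0.0105), Iars (-0.59 ± 0.10, adjusted p = 0.0110), Tars (-0.59 ± 0.10, adjusted p = 0.0117), Nars (-0.56 ± 0.10, adjusted p = 0.0212) and Gars (-0.49 ± 0.09, adjusted p = 0.0249). The cytosolic median log2 fold change was -0.32, the mitochondrial -0.12 and that of all genes -0.01.

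These PHT calls numbered 2 with a sex term, 4 with only the compared groups in the fit, and 3 without Ptpmt1 knockout replicate 2 or double replicate 1. Cars and Sars kept their calls under every alternative run. The others lost theirs under at least 1, with the highest adjusted p 0.344 for Aars (with a sex term), 0.359 for Lars (with a sex term), 0.518 for Iars (with a sex term), 0.513 for Tars (with a sex term), 0.598 for Nars (with a sex term) and 0.628 for Gars (with a sex term). Doubles lay below knockouts without overlap for 13 of 19 cytosolic and 9 of 16 mitochondrial members and above them for 0 of either, where 12% of all genes tested lay lower and 11.9% higher without overlap. In doubles and knockouts, the 6 erythroid markers summed to 9083 to 15147 and 1329.5 to 5813, and the 4 epicardial markers to 1962 to 2453 and 2457 to 2704, without overlap, and their part was not tested.

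Against controls, the doubles of FST and PHT showed no called synthetase. In FST doubles, 0 of 19 cytosolic and 0 of 16 mitochondrial members were called by limma, edgeR or DESeq2, with 0 and 1 at an unadjusted p under 0.05, where 0.072% of genes were called higher and 0.072% lower. Cytosolic log2 fold changes ran from -0.13 to 0.19. In PHT doubles the members called were 0 and 0 by the 3 tools, with 1 and 2 at an unadjusted p under 0.05, where 0.0134% of genes were called in each direction, and cytosolic values ran from -0.25 to 0.17. Mitochondrial log2 fold changes ran from -0.30 to 0.17 in FST doubles (median -0.06, 5 of 16 above 0). In PHT doubles they ran from -0.39 to 0.07 (median -0.13, 2 of 16 above 0). The medians of all genes were -0.003 and -0.002. Cars had 327, 301 and 282 in FST doubles and 246, 261 and 317 in FST controls, which overlapped. Cars had 362 and 391 in PHT doubles and 467 and 431 in PHT controls, where both doubles were lower (-0.25 ± 0.12, adjusted p = 0.756). The 95% interval of Cars was -0.10 to 0.39 in FST and -0.51 to 0.00 in PHT. Tables were normalized separately and the PTGC table has no Ptpmt1 knockout alone, so no test of the difference between Gcn2 and the other mutations was made.

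In mice with the second mutation alone no synthetase was called. In Eif2a mutants against FST controls 0 of 35 members were called by limma, edgeR or DESeq2 (limma gave 0 cytosolic and 1 mitochondrial at an unadjusted p under 0.05), where 0.0288% of genes were called higher and 0.0072% lower. In Hri knockouts against PHT controls 0 of 35 were called by the 3 tools (1 and 0 unadjusted), where 0.00668% were called higher and 0.0134% lower. Cars had 369 and 355 in the Hri knockouts, below the PHT controls (-0.31 ± 0.12, adjusted p = 0.9998). Doubles against the second mutant, which ask for the effect of Ptpmt1 loss on that background, gave 0 of 35 in FST by the 3 tools, with 0 cytosolic and 1 mitochondrial unadjusted, where 0.0072% of genes were called lower and 0% higher. In PHT they gave 0 of 35 by the 3 tools, with 0 and 2 unadjusted, where 0.00668% and 0.0134% were. Sars was at 0.07 ± 0.12 in FST and 0.00 ± 0.09 in PHT in these comparisons, and Lars at -0.04 ± 0.13 and -0.04 ± 0.11.

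The interaction, the effect of Ptpmt1 loss with the second mutation minus its effect without it, tests whether the rise depends on that mutation. In FST 0 of 35 members passed (11 cytosolic and 2 mitochondrial at an unadjusted p under 0.05), where 0% of genes were called higher and 0.0216% lower. The lowest adjusted p among members was that of Cars (-0.95 ± 0.16, adjusted p = 0.0769), followed by Iars (-0.71 ± 0.13, adjusted p = 0.105), and the cytosolic median was -0.46. edgeR called 0 members and DESeq2 5, Cars (-0.95 by limma), Gars, Iars, Lars and Nars. Cars was called in the FST interaction with DESeq2 (0.00100), without Ptpmt1 knockout replicate 3 (0.0430) and without control replicate 3 (0.0225), adjusted p in parentheses. Gars was called in the FST interaction with DESeq2 (0.00196) and without control replicate 3 (0.0482), adjusted p in parentheses. Iars was called in the FST interaction with DESeq2 (0.00144) and without control replicate 3 (0.0350), adjusted p in parentheses. Lars2 was called in the FST interaction without Ptpmt1 knockout replicate 3 (0.0142), adjusted p in parentheses. In PHT 1 of 19 cytosolic members passed, Sars (-0.71 ± 0.12, adjusted p = 0.0378), where 0.114% of genes were called lower and 0.00668% higher. None of the 16 mitochondrial members did (1 unadjusted, 0 by edgeR or DESeq2). Lars (-0.75 ± 0.15, adjusted p = 0.0839) and Cars (-0.81 ± 0.16, adjusted p = 0.101) missed the threshold. edgeR called 1 member, Sars, and DESeq2 3, Cars, Lars and Sars. Sars had 1016 and 1085 in doubles, 1703, 1717 and 1865 in Ptpmt1 knockouts, 1055 and 1039 in Hri knockouts and 1020.2 and 1128 in controls, so only the Ptpmt1 knockouts stood apart. Sars lost its interaction call with no filter on low values (0.0624), with a sex term (0.0732), without Hri knockout replicate 1 (0.155), without Hri knockout replicate 2 (0.153), without Ptpmt1 knockout replicate 1 (0.0795), without Ptpmt1 knockout replicate 2 (0.116), without Ptpmt1 knockout replicate 3 (0.104), without control replicate 1 (0.258), without control replicate 2 (0.0800) and without double replicate 1 (0.0827), adjusted p in parentheses. Cars was called in the PHT interaction with DESeq2 (0.0212), adjusted p in parentheses. Lars was called in the PHT interaction with DESeq2 (0.00284) and without double replicate 2 (0.0159), adjusted p in parentheses. Nars was called in the PHT interaction without double replicate 2 (0.0404), adjusted p in parentheses.

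Both sets were summarised within each library as the mean log2(value + 1) of the 19 cytosolic members minus that of the 16 mitochondrial members, a measure in which library scaling cancels. In FST this was 1.80, 1.77 and 1.71 in doubles, 1.89, 2.03 and 2.14 in Ptpmt1 knockouts, 1.69, 1.69 and 1.71 in Eif2a mutants and 1.54, 1.60 and 1.81 in controls. The knockouts stood above every other FST library. In PHT it was 1.51 and 1.61 in doubles, 1.74, 1.80 and 1.68 in Ptpmt1 knockouts, 1.39 and 1.42 in Hri knockouts and 1.36 and 1.57 in controls, and again the knockouts were above all others. In PTGC it was 2.23, 2.15 and 2.16 in doubles and 1.63, 1.67 and 1.83 in controls, with no overlap. Group means were 2.02 ± 0.13 in knockouts and 1.65 ± 0.15 in controls of FST, 1.74 ± 0.06 and 1.46 ± 0.15 in PHT, and 2.18 ± 0.04 in doubles and 1.71 ± 0.10 in controls of PTGC (SD). No p is given, since the members were chosen with results known. Without Lars2, a step added after the data were seen, the means were 2.17 ± 0.05 in knockouts and 1.71 ± 0.13 in controls of FST, 1.93 ± 0.05 and 1.63 ± 0.04 in PHT, and 2.23 ± 0.03 in doubles and 1.78 ± 0.11 in controls of PTGC.

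**Figure D4:**
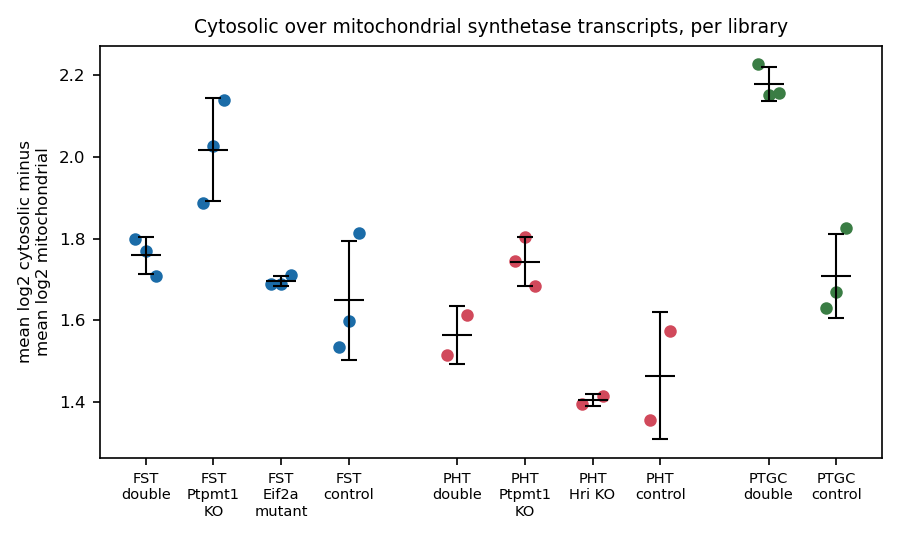
Mean log2(value + 1) of 19 cytosolic minus that of 16 mitochondrial synthetases in each library (points), with group mean and SD (black), by table and genotype. Ptpmt1 knockouts of FST (1.89 to 2.14) and PHT (1.68 to 1.80) lie above the other groups of their table, and PTGC doubles (2.15 to 2.23) above their controls.

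Where 1 cytosolic and 1 mitochondrial gene charge the same amino acid, the ratio of the pair was formed in each library, in 15 pairs (Eprs enters with Ears2 and with Pars2). The log2 ratio was higher in Ptpmt1 knockouts than controls for 12 of 15 pairs in FST (median difference 0.61) and 13 of 15 in PHT (0.30), and in PTGC doubles for 14 of 15 (0.61). Libraries did not overlap for 10, 8 and 10 pairs, all with the higher ratio in knockouts or PTGC doubles. With labels assigned at random, a pair would not overlap with probability 0.1 at 3 against 3 and 0.2 at 3 against 2. The log2 ratio of Sars to Sars2 was 3.13 ± 0.31 and 2.17 ± 0.05 in knockouts and controls of FST, 2.94 ± 0.15 and 1.96 ± 0.14 in those of PHT, and 3.39 ± 0.11 and 2.47 ± 0.27 in doubles and controls of PTGC (SD). Cars to Cars2 was higher by 1.04, 0.91 and 1.28 in FST, PHT and PTGC, and Iars to Iars2 by 0.76, 0.50 and 0.95. Hars to Hars2 (-0.20, 0.03 and -0.04) and Rars to Rars2 (-0.15, -0.09 and 0.11) lay between -0.20 and 0.11 in the 3 tables. Lars to Lars2 differed by -0.55 in FST, where Lars2 was high in 2 knockouts, by 0.28 in PHT and by 1.06 in PTGC, and its groups overlapped in FST and PHT and not in PTGC. Groups of 3 cannot give an exact permutation p below 0.1 (0.2 for 3 against 2), so no pair can pass alone, and the smallest Benjamini-Hochberg adjusted exact p over the 15 pairs was 0.15 in FST, 0.375 in PHT and 0.15 in PTGC (two-sided). In doubles against controls, the median difference was 0.12 in FST, with 1 pair not overlapping, and 0.10 in PHT, with 7. Of the 7, Tars/Tars2, Vars/Vars2 and Wars/Wars2 were lower in doubles (-0.08, -0.17 and -0.22) and the others higher. With random labels, a pair would not overlap with probability 0.333 at 2 against 2. The smallest adjusted exact permutation p was 0.75 in FST and 0.714 in PHT, where 2 against 2 cannot give a p below 0.333.

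**Figure D5:**
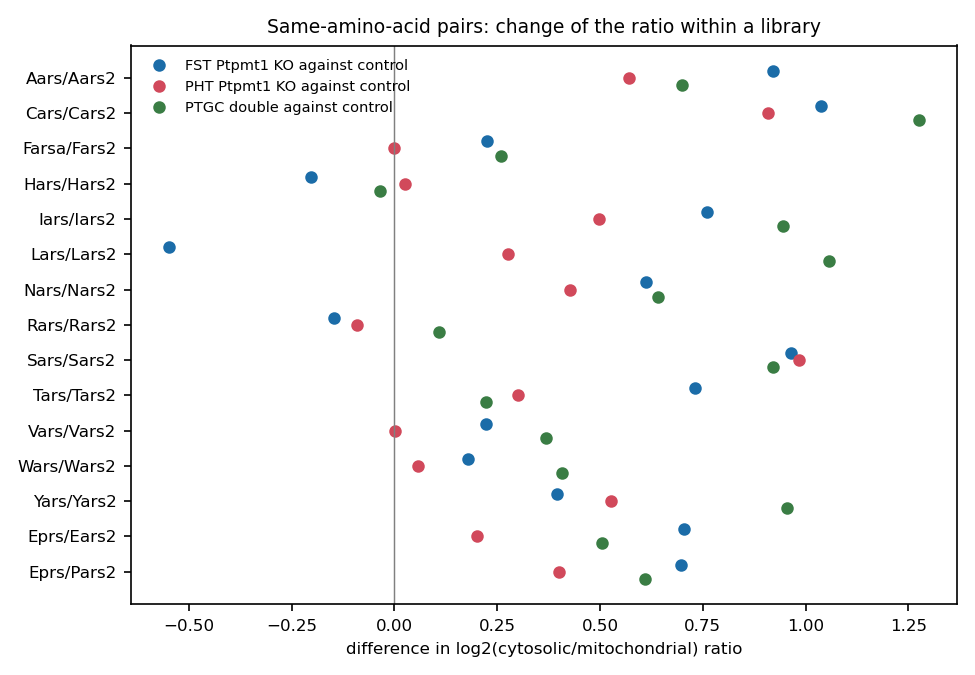
Difference in the mean log2 ratio of cytosolic to mitochondrial transcript for 15 same-amino-acid pairs, Ptpmt1 knockout minus control in FST (blue) and PHT (red) and Ptpmt1 Gcn2 double minus control in PTGC (green). Most points lie right of 0, with Lars/Lars2 in FST at -0.55 as the farthest to the left.

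Other genes that handle tRNA were read from the same fits. Of 11 genes of tRNA export and maturation 1 rose in each of the 3 comparisons, Xpot, the exportin that carries tRNA out of the nucleus, and 0 fell. Xpot had 894, 839.7 and 809 in FST doubles, 1289.5, 1229.8 and 1569 in Ptpmt1 knockouts, 1014, 885 and 915 in Eif2a mutants and 830.2, 844 and 848 in controls. The FST knockouts lay above all other libraries, at 0.69 ± 0.09, adjusted p = 0.00308 against control and -0.68 ± 0.09, adjusted p = 0.00379 for double against knockout. In PHT Xpot had 1646 and 1488 in doubles, 2093, 2209 and 2249.9 in knockouts, 1433 and 1484 in Hri knockouts and 1482 and 1681 in controls (0.47 ± 0.08, adjusted p = 0.0216), and doubles were lower than knockouts (-0.48 ± 0.08, adjusted p = 0.0180). In PTGC it had 2593, 2471 and 2471 in doubles and 1334, 1488 and 1545 in controls (0.79 ± 0.09, adjusted p = 0.00108). Among 7 other synthetase and editing genes, Mars, the cytosolic methionyl enzyme, had 1519, 1339 and 1567 in PTGC doubles and 793, 877 and 689 in controls, which did not overlap, and rose (0.91 ± 0.11, adjusted p = 0.00151). In FST Mars had 551, 614 and 559 in doubles, 715, 702 and 922 in Ptpmt1 knockouts, 592, 536 and 524 in Eif2a mutants and 531, 486 and 593 in controls. In PHT it had 972 and 784 in doubles, 1187, 1285 and 1329 in Ptpmt1 knockouts, 856 and 917 in Hri knockouts and 929 and 934 in controls. Ptpmt1 knockouts stood above every other library of both tables. Mars missed the threshold in FST (0.53 ± 0.11, adjusted p = 0.0509) and PHT (0.44 ± 0.10, adjusted p = 0.112) knockouts against controls, and fell in PHT doubles against knockouts (-0.54 ± 0.10, adjusted p = 0.0251). The 3 scaffold genes of the multisynthetase complex (Aimp1, Aimp2 and Eef1e1), the 4 tested genes of the mitochondrial amidotransferase and formylation, the 6 cytosolic and the 4 mitochondrial elongation factors had 0 genes called in these 3 comparisons (0, 0, 0 and 1 unadjusted in FST, 0, 0, 1 and 0 in PHT, 0 in PTGC).

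Promoter letters were set beside the calls as a description. Of the 10 cytosolic genes called at least once, 7 have a window, and 5 of those hold TGATGNAA (Aars, Gars, Iars, Tars and Yars), while Eprs and Sars do not. Of the 9 called in none, 5 have a window (Dars, Farsa, Farsb, Kars and Qars) and 0 hold it. In the 14 mitochondrial windows 0 do. Cars, Lars and Nars have no window in the table and were not searched. The NRF1 site is in 1 of the 7 (Tars), 2 of the 5 (Farsb and Kars) and 2 of the 14 (Iars2 and Mars2).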

How the data were processed

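RNA-seq of mouse cardiomyocytes was analysed from 27 of 33 libraries, and the 6 of a line with Ptpmt1 alone were not analysed here. Per the submitters' processing notes, STAR 2.5.3a, DESeq2 1.12.4 and mm10 were used. No source used here names the counter, the annotation or the strand setting. The deposited signal values are normalized counts, each gene's reads divided by a size factor, in 3 tables normalized separately, so every test stayed within a table. Whole reads were recovered for 100% of values (within 0.1 of a whole number). Of the symbols, 26 had turned into dates.

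Values were tested as log2(value + 1) with limma 3.58.1 (trend, all groups of the table in a single fit, R 4.3.3) in genes with 10 or more in as many libraries as the smallest group, with Benjamini-Hochberg adjustment and a threshold of 0.05. Fold changes are on this log2(value + 1) scale. edgeR 4.0.16 and DESeq2 1.42.0 ran on recovered reads as alternatives, beside other pseudocounts, filters, TMM scaling, a sex term, fits with only the compared groups and leaving out libraries. The code was tested on simulated data. Over 24 pairs of libraries of a group, chi-square per degree of freedom was 2.17 to 39.6, so none agreed within sampling noise. Per-kb levels used GENCODE exon lengths, and symbols were matched to RefSeq promoters. Named with values in every library were the called members, their mitochondrial partners, Gars, Kars, Lars2 and called pathway genes. The members and lists were chosen with earlier results of these data known.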

Additional observations from a re-analysis of the deposited data

Results flagged for a closer look

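The effect of Ptpmt1 loss on Sars differed between Hri knockout and intact mice of the PHT table, which is why it is listed here: the log2 interaction was -0.71 (limma adjusted p = 0.0378). It was the only member that limma called in either interaction with all libraries, and 10 of the 16 alternatives lost the call. DESeq2 called 5 members in the FST interaction and 3 in the PHT interaction, and limma with 1 library left out called up to 3 cytosolic members in each and Lars2 in FST.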

How the results depend on the processing

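No paired analysis was possible because the groups compared share no replicate numbers in the labels. No called value reversed under the alternatives run. Leaving out 1 library at a time, the cytosolic calls ranged from 4 to 11 in FST knockouts against controls, 1 to 7 in PHT and 5 to 10 in PTGC doubles against controls. They ranged from 3 to 8 in FST doubles against knockouts, 3 to 8 in PHT, 0 to 3 in the FST interaction and 0 to 3 in the PHT interaction. Mitochondrial calls ranged from 0 to 1 in knockouts against controls of FST and of PHT, in FST doubles against knockouts and in the FST interaction. With a sex term the cytosolic calls were 5 in FST knockouts against controls, 2 in PHT doubles against knockouts and 0 in the PHT interaction. With only the compared groups fitted they were 4 in FST knockouts against controls and 4 in PHT doubles against knockouts. DESeq2 called 1 mitochondrial gene in FST knockouts against controls, 1 in FST doubles against knockouts (edgeR also 1), and 5 and 3 cytosolic genes in the FST and PHT interactions. With no filter on low values the PHT interaction had 0. The cause of these shifts was not tested. All 300 pair-ratio values under alternatives moved by less than the spread between libraries. For values with 1 library left out this was fixed in advance. Dropping 1 library from so small a group cannot shift the mean that far, so it says nothing about robustness. Whether the values kept their direction was not checked. PHT groups of 2 limit every test there.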
